A study of Mus musculus with 9 samples.

Results

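The vascular and lymphatic endothelial genes are 37 genes known from blood vessel and lymphatic vessel lining cells, followed through mouse prostates that lack 1 or both functional copies of Srd5a2. They were taken by gene symbol from a table of 54532 genes, and 36 of the 37 had enough reads to be tested. The set holds 4 capillary genes, 3 large-vessel genes, 5 lymphatic genes, 6 receptors of the VEGF, angiopoietin and TGF-beta systems, 6 junction and adhesion genes, 3 transcription factors, 4 genes of G protein-coupled receptor systems and 6 other surface or secreted proteins. Srd5a2 encodes the type II 5-alpha-reductase, which turns testosterone into the stronger androgen dihydrotestosterone. Bulk RNA was sequenced from prostates of Srd5a2-null (KO), heterozygous (Het) and wild-type (WT) mice, with 3 libraries per genotype. The breeding scheme mated Het males with C57BL6 females and bred the offspring on to obtain null males. Neither a cell-type-restricted deletion nor a further allele or treatment is named in the labels, and neither age nor prostate lobe is given. Whether each library stands for its own animal is not stated either, so p-values speak only to the scatter among these libraries, part of which may be technical.

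Endothelial cells line every vessel and differ along the vascular tree. Capillary cells of glands can be fenestrated, with pores spanned by diaphragms built from PLVAP, large vessels store von Willebrand factor, and lymphatic capillaries carry the hyaluronan receptor LYVE1 under the control of PROX1. ETS factors such as ERG and the SoxF factors SOX7, SOX17 and SOX18 are known to switch on endothelial genes, VEGF drives vessel growth through KDR and FLT4, and the angiopoietins act through TEK. In the prostate, blood flow and the vascular bed are known to depend on androgens.

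Total counts ran from 16233392 to 19191974 in KO, from 18436349 to 24017791 in Het and from 19215332 to 21137415 in WT libraries. Levels are given as CPM, read counts scaled to a common library size. Srd5a2 itself stood at 0.934, 0.512 and 1.15 CPM in KO libraries 1 to 3, 3.68, 5.19 and 2.37 CPM in Het libraries, and 2.30, 5.5 and 8.81 CPM in WT libraries, so every KO library lay below every other. Het and WT libraries overlapped in it. At equal depth 20098 to 20380 genes were detected in KO libraries, 16845 to 17756 in Het libraries and 17877 to 20394 in WT libraries. Of the genes averaging 1 to 3 CPM, 0.125 to 0.962% had no read in a KO library, 10.9 to 12.6% in a Het library and 1.88 to 7.53% in a WT library. Many endothelial genes lie at or near such levels. With the number of genes detected as covariate, their median log2 fold change was 0.92 in KO over WT, -1.90 in Het over WT and 2.85 in KO over Het. That number was lower in every Het library than in any other, so this fit cannot separate it from the Het genotype. The part of this detection gap in the endothelial values was not tested. The secretory gene Sbp was under 1000 CPM in Het library 2 and in WT libraries 1 and 3, which therefore stand apart from the rest. Without these 3 libraries the median log2 fold change of the endothelial genes was 0.42 in KO over WT, -1.22 in Het over WT and 1.5 in KO over Het, on 1 WT library and 2 Het libraries.

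The labelled tissue held clear endothelial message in each genotype. Set per gene length as the deposited FPKM (fragments scaled to gene length and library size), the most abundant of the 37 in KO libraries was Aqp1, a water channel of capillaries and red cells, at 22.3 ± 7.84 in KO, 11.4 ± 6.68 in Het and 16 ± 6.75 in WT libraries (FPKM, mean ± SD, n = 3 each, as for all values of this form). Cldn5, the main claudin of endothelial tight junctions, followed at 11.3 ± 4.57 in KO, 3.74 ± 2.53 in Het and 5.58 ± 2.47 FPKM in WT libraries. At the low end stood Prox1, the master regulator of lymphatic identity, with 0.0855 ± 0.0944 in KO, 0 in Het and 0.019 ± 0.0182 FPKM in WT libraries. Prox1 was the gene that failed the read filter.

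By group mean, the KO prostates stood highest and the Het prostates lowest for most genes. Among the 36 tested genes the KO mean was the highest of the 3 genotypes for 27 and the Het mean the lowest for 31, and the untested Prox1 had the same order of means. Summed over the set, KO libraries 1 to 3 reached 421.8, 509.8 and 310.9 CPM, Het libraries 121.6, 224.3 and 202.7 CPM, and WT libraries 221.0, 315.5 and 375.9 CPM. The order of single libraries was less clean than that of the means, since WT library 1 lay between Het libraries 2 and 3. Among the 36 tested genes Het library 1 was the lowest library for 20, counting Gpr182, for which it tied with the other Het libraries, and KO library 2 was the highest for 17. In whole tissue, fewer endothelial cells and less RNA per cell cannot be told apart.

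**Figure D1:**
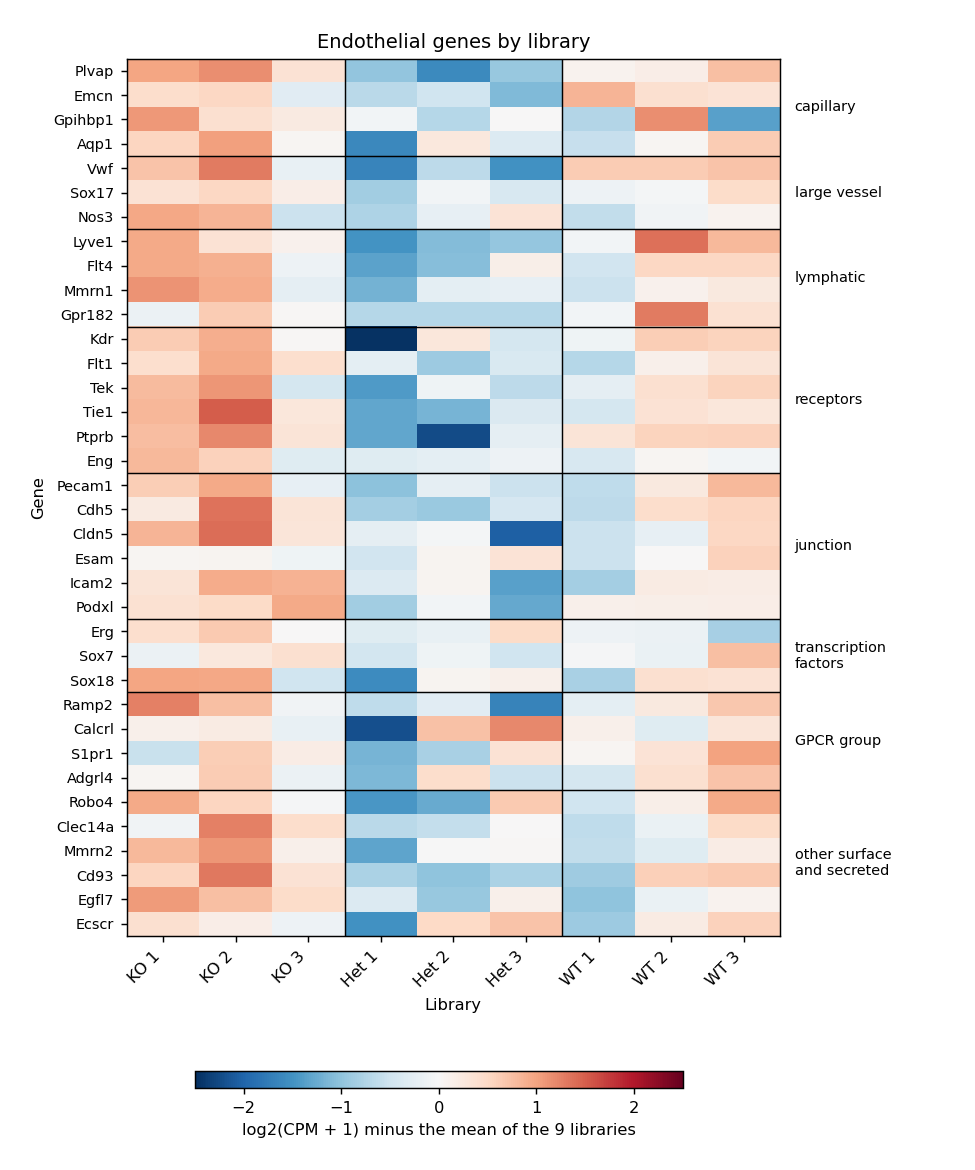
Heat map of the 36 tested endothelial genes (rows, by class) in the 9 libraries (columns: KO, Het, WT). Colour is the log2(CPM + 1) of a gene in a library less the mean of that gene over the libraries, saturating at the ends of the scale. Het library 1 is low in most rows, KO libraries 1 and 2 are high in most, and WT library 1 resembles the Het libraries in many rows.

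Heterozygotes were first set against wild type. Of the 36 tested genes, 32 had a lower and 4 a higher fitted level in Het prostates, with a median log2 fold change of -0.85, against 0.00 over all 16836 genes tested. None passed an adjusted p under 0.05 in edgeR's quasi-likelihood test, which called 0% of all genes in this comparison, and the smallest adjusted p among the 36 was 0.392. At an unadjusted p under 0.05, 10 genes were lower (27.8%, against 5.61% of all genes) and 0 were higher (3.43% of all genes). Without WT library 2 the 10 became 6, and without WT library 3 the median became -0.55. The share of all genes is not given here for the 6. DESeq2, run as an alternative, called 5 of the 36 lower at an adjusted p under 0.05, against 0.899% of all genes it could adjust: Lyve1, Plvap, Vwf, Gpr182 and Emcn. In 8 of the 36 every Het library lay below every WT library (8.59% of all genes did so). Gpr182 is among the 10, the 5 and the 8. It had no read in any Het library and passed the read filter through KO and WT libraries alone, so only a low Het value was open to it. The filter itself needs reads in only some libraries: 35 of the 36 genes reached its level of 0.521 CPM in every KO library, 28 in every Het library and 33 in every WT library, so these counts describe the tested genes and not the whole set.

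Plvap, at chr8:71497765-71511752 (GRCm38, as all positions here), builds the diaphragms of fenestrated capillaries. It had 18.3, 20.9 and 11.5 CPM in KO libraries, 3.95, 2.25 and 4.03 CPM in Het libraries and 9.36, 9.94 and 15.4 CPM in WT libraries. Every Het library lay below every KO and WT library, and KO and WT overlapped. The log2 fold change of Het over WT was -1.76 ± 0.36 (SE; edgeR adjusted p = 0.392, DESeq2 adjusted p = 0.00393). For KO over Het it was 2.31 ± 0.37, with the smallest p of all 36 genes (edgeR adjusted p = 0.311, DESeq2 adjusted p = 1.21e-05). KO over WT gave 0.55 ± 0.35 (edgeR adjusted p = 1).

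Emcn, which encodes endomucin, a sialomucin of capillaries and veins, averaged 9.95 ± 3.03 in KO, 4.42 ± 1.13 in Het and 12.3 ± 2.65 CPM in WT libraries. The Het libraries again lay below all others, with a log2 fold change over WT of -1.47 ± 0.35 (SE; edgeR adjusted p = 0.401, DESeq2 adjusted p = 0.0202). The remaining capillary genes overlapped between Het and WT. Gpihbp1, which anchors lipoprotein lipase on capillaries, was uneven within WT, at 0.628, 5.02 and 0.0518 CPM, and Aqp1 had a log2 fold change of Het over WT of -0.51 ± 0.50 (SE). Aqp1 is also made by red cells and some epithelia.

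Vwf, at chr6:125546774-125686679, encodes the clotting factor stored by large-vessel endothelium. It had 15.9, 24.5 and 8.05 CPM in KO libraries, 2.27, 5.52 and 2.59 CPM in Het libraries and 14.9, 15.1 and 16 CPM in WT libraries. The WT libraries were close together, the KO libraries spread on both sides of them and the Het libraries lay below both. The log2 fold change was -2.14 ± 0.46 for Het over WT (SE; edgeR adjusted p = 0.392, DESeq2 adjusted p = 0.00404) and 2.22 ± 0.46 for KO over Het (edgeR adjusted p = 0.611, DESeq2 adjusted p = 0.00242). KO over WT was 0.08 ± 0.43, and without KO library 2 it was -0.36. Vwf is also made by platelets and their precursors, and the part of platelets in the Vwf values was not tested. The 2 tested platelet markers, Pf4 and Itga2b, were lower in Het than in WT, with a median log2 fold change of -0.73. The platelet markers Gp9 and Gp1bb had no read in any library, and the 5 platelet markers summed to 8.59 to 14.9 CPM in KO, 5.30 to 10.8 CPM in Het and 9.20 to 17.3 CPM in WT libraries. Of the other large-vessel genes, Sox17, an arterial SoxF factor, averaged 3 ± 0.48 in KO, 1.35 ± 0.637 in Het and 2.41 ± 0.787 CPM in WT libraries. Nos3, the endothelial nitric oxide synthase, averaged 3.29 ± 2 in KO, 1.64 ± 1.01 in Het and 1.56 ± 0.61 CPM in WT libraries, so that Het was not below WT for it.

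Of the 5 lymphatic genes 4 were tested, with a median log2 fold change of Het over WT of -2.07. Gpr182 passed the filter through KO and WT libraries alone, and over the other 3 genes the median was -1.31. Lyve1, at chr7:110850607-110863239, had 7.36, 4.61 and 3.66 CPM in KO libraries, 0.541, 1.06 and 1.21 CPM in Het libraries and 3.14, 10.3 and 6.58 CPM in WT libraries. Het libraries lay below all others, while KO and WT overlapped. The log2 fold change of Het over WT was -2.82 ± 0.57 (SE; edgeR adjusted p = 0.392, DESeq2 adjusted p = 0.00126), and that of KO over Het was 2.47 ± 0.57 (edgeR adjusted p = 0.631, DESeq2 adjusted p = 0.00881). KO over WT gave -0.36 ± 0.53, and 0.13 without WT library 2. Gpr182, a chemokine-scavenging receptor of lymphatic and sinusoidal endothelium, had 49 reads over the KO libraries, 0 over the Het libraries and 102 over the WT libraries. Taking 3 reads over the 3 Het libraries as the floor, its WT mean stood 31.0-fold and its KO mean 17.6-fold above that floor. The folds became 16.7 without WT library 2, which held 69 of the WT reads, and 11.4 without KO library 2. Prox1 had 39 reads in KO, 0 in Het and 10 in WT libraries. Its KO mean stood 14.2-fold and its WT mean 3.19-fold above the same floor. KO library 2 held 29 of the KO reads, and the folds became 5.24 without it and 1.73 without WT library 1. The floor allows for counting error of the Het zeros only. The KO and WT means are taken as measured, so these folds are not strict lower limits. Flt4, the receptor of the lymphatic growth factor VEGF-C, averaged 4.27 ± 1.89 in KO, 1.21 ± 1.30 in Het and 2.99 ± 1.37 CPM in WT libraries, and Mmrn1, a multimerin of lymphatic cells and platelets, 2.75 ± 1.60 in KO, 0.638 ± 0.553 in Het and 1.25 ± 0.597 CPM in WT libraries. Both overlapped between Het and WT.

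Lyve1 is also made by some tissue macrophages. Of 12 tested macrophage markers 11 had a lower fitted level in Het than in WT, with a median log2 fold change of -0.91, and the 13 listed summed to 143 to 240 CPM in KO, 98.1 to 149 CPM in Het and 206 to 233 CPM in WT libraries. Only Timd4 among them had libraries without a read, 1 in KO, 2 in Het and 1 in WT. The part of macrophages in the Lyve1 values was not tested.

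**Figure D2:**
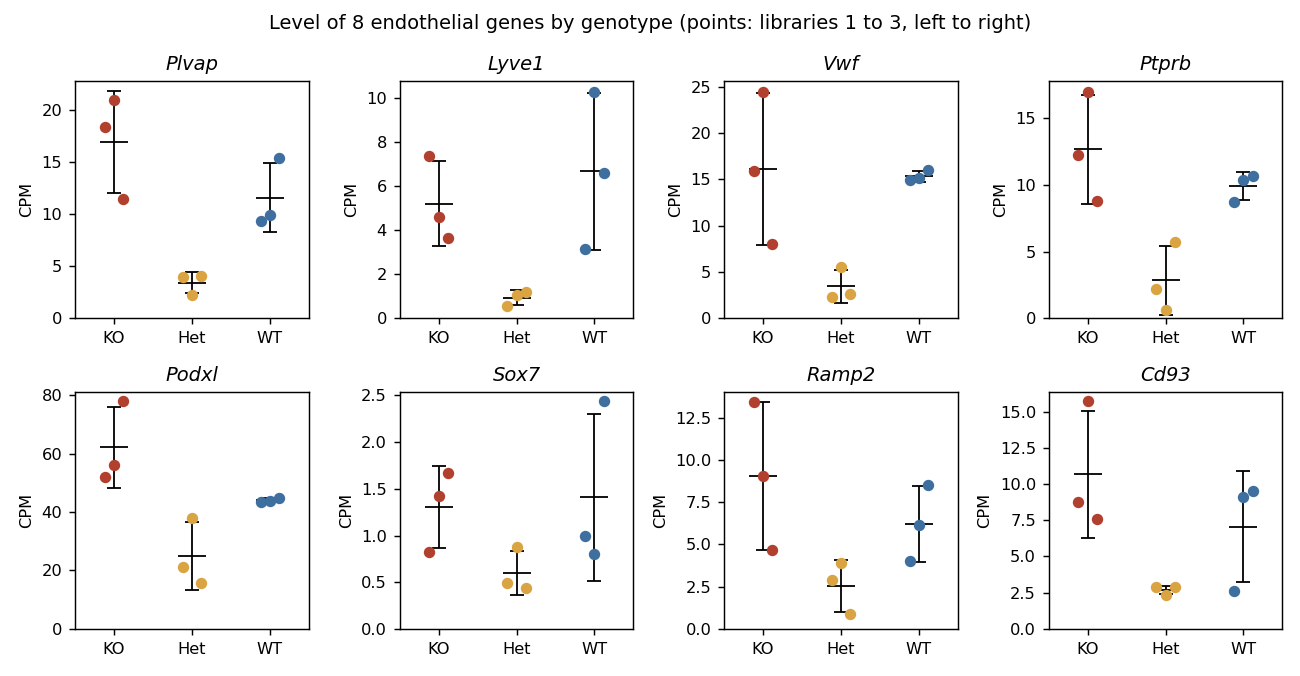
CPM of 8 endothelial genes in each library, with points for single libraries and bars for the mean and SD of KO, Het and WT (n = 3 each). The Het points of Plvap, Lyve1, Vwf, Ptprb, Podxl and Ramp2 lie below all KO and WT points, whereas those of Sox7 overlap with both and those of Cd93 overlap with WT. Ptprb, Podxl, Sox7, Ramp2 and Cd93 are shown because each had the smallest p of Het over WT in its class. The distance between their Het and WT points was thus selected for. Of the 36 tested genes, 8 had every Het library below every WT library.

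All 6 receptors of the growth-factor systems had a lower fitted level in Het than in WT, with a class median log2 fold change of -1.15. From here on Ptprb, Podxl, Sox7, Ramp2 and Cd93 are given in full. Each had the smallest p of Het over WT in its class, so a distance between Het and WT was selected for. Ptprb, at chr10:116275523-116389535, encodes the phosphatase VE-PTP, which restrains TEK signalling. It had 12.2, 17.0 and 8.79 CPM in KO libraries, 2.16, 0.643 and 5.68 CPM in Het libraries and 8.73, 10.4 and 10.7 CPM in WT libraries. Het libraries were below all others for it, with library 2 lowest and library 3 highest among them, and the log2 fold change over WT was -1.81 ± 0.63 (SE; edgeR adjusted p = 0.458). Tie1, the orphan partner of TEK, averaged 12.4 ± 5.68 in KO, 2.74 ± 1.41 in Het and 6.39 ± 2.01 CPM in WT libraries. Het overlapped with WT for Tie1 but not with KO, where the log2 fold change of KO over Het was 2.18 ± 0.49 (SE; edgeR adjusted p = 0.63, DESeq2 adjusted p = 0.00823). Kdr, the main VEGF receptor, had 8.13, 9.90 and 4.97 CPM in KO libraries, 0.0541, 6.07 and 3.31 CPM in Het libraries and 4.45, 7.90 and 7.57 CPM in WT libraries, and its lowest value is a single read in Het library 1. Eng, a TGF-beta co-receptor, averaged 32.0 ± 11.8 CPM in KO libraries, 19.8 ± 1.42 CPM in Het libraries and 21.2 ± 3.40 CPM in WT libraries.

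Among the junction and adhesion genes Podxl, at chr6:31519488-31563981, encodes podocalyxin, a sialomucin of the luminal membrane that some epithelia also make. It had 52.1, 56.3 and 77.9 CPM in KO libraries, 21.2, 38.0 and 15.7 CPM in Het libraries and 43.5, 43.9 and 44.7 CPM in WT libraries. No genotype overlapped with another, KO being highest and Het lowest. The log2 fold change was -0.82 ± 0.29 for Het over WT (SE; edgeR adjusted p = 0.475), 1.31 ± 0.30 for KO over Het (edgeR adjusted p = 0.63, DESeq2 adjusted p = 0.0187) and 0.50 ± 0.29 for KO over WT (edgeR adjusted p = 1). Cdh5, the cadherin of endothelial junctions, averaged 15 ± 7.49 in KO, 4.87 ± 1.19 in Het and 10.1 ± 4.28 CPM in WT libraries, and Pecam1, the pan-endothelial adhesion molecule CD31, 22.6 ± 8.81 in KO, 10.1 ± 2.92 in Het and 18.5 ± 9.06 CPM in WT libraries. Both overlapped between Het and WT and not between KO and Het. Esam, a junction molecule shared with platelets, stood at 11.8 ± 0.843 in KO, 11.9 ± 3.59 in Het and 12.5 ± 5.14 CPM in WT libraries, with overlap throughout.

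The transcription factors and the G protein-coupled receptor genes were more uneven. Sox7, at chr14:63943673-63950732, had 0.824, 1.42 and 1.67 CPM in KO libraries, 0.486, 0.873 and 0.442 CPM in Het libraries and 0.994, 0.799 and 2.44 CPM in WT libraries, on 8 to 47 reads per library. The genotypes overlapped and the log2 fold change of Het over WT was -1.22 ± 0.81 (SE; edgeR adjusted p = 0.683). Ramp2, at chr11:101246028-101259546, encodes the partner that turns CALCRL into an adrenomedullin receptor. It had 13.4, 9.04 and 4.66 CPM in KO libraries, 2.86, 3.91 and 0.883 CPM in Het libraries and 4.03, 6.13 and 8.50 CPM in WT libraries. Het libraries lay below all others, the nearest pair being Het library 2 and WT library 1, and the log2 fold change over WT was -1.28 ± 0.58 (SE; edgeR adjusted p = 0.562). Calcrl itself did not follow Ramp2. It had 8.90, 9.39 and 6.90 CPM in KO libraries, 0.973, 13.9 and 19.6 CPM in Het libraries and 8.84, 6.26 and 10.1 CPM in WT libraries, so the Het libraries held both its lowest and its highest values.

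Of the other surface and secreted genes, Cd93, at chr2:148436640-148443563, encodes a lectin-like receptor of endothelium that myeloid cells also make. It had 8.73, 15.7 and 7.58 CPM in KO libraries, 2.86, 2.34 and 2.87 CPM in Het libraries and 2.62, 9.10 and 9.49 CPM in WT libraries. WT library 1 sat among the Het libraries, and KO and Het did not overlap. The log2 fold change was -1.39 ± 0.50 for Het over WT (SE; edgeR adjusted p = 0.475) and 1.98 ± 0.51 for KO over Het (edgeR adjusted p = 0.64, DESeq2 adjusted p = 0.0326). Ecscr, a regulator of endothelial migration, varied like Calcrl within Het, at 0.919, 6.71 and 7.89 CPM.

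Promoter sequence was available for 17 of the 37 genes, as 22 windows of 300 bases from 250 before to 50 after a transcription start (RefSeq, GRCm38.p6). The ETS motif CNGGAAG, searched on both strands, occurred in 13 of the 22 windows (59.1%) and in 31.9% of 32851 windows of all genes. The SOX motif AACAAT occurred on either strand in 5 of the 22 (22.7%) and in 10.7% of all windows. The bare ETS core GGAA was in 95.5% of the endothelial windows and 96.0% of all. These matches describe letters only and no binding was measured. The ETS motif was held by 11 of the 17 genes. Emcn and Tie1 among them were lower in Het than in WT at an unadjusted p under 0.05, and Calcrl was not. The promoters of these 3 are shown, picked with values in view. Each is given 5′ to 3′ on the strand of its gene, with capitals marking matches of CNGGAAG or its reverse complement. They lie at chr3:137340828-137341127 (plus strand), chr4:118489800-118490099 (minus strand) and chr2:84425217-84425516 (minus strand).
Emcn: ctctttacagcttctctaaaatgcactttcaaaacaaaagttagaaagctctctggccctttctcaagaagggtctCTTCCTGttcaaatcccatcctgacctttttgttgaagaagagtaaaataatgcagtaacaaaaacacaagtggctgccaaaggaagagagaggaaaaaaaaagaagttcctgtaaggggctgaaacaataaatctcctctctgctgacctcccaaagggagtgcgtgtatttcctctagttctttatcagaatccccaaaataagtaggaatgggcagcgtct
Tie1: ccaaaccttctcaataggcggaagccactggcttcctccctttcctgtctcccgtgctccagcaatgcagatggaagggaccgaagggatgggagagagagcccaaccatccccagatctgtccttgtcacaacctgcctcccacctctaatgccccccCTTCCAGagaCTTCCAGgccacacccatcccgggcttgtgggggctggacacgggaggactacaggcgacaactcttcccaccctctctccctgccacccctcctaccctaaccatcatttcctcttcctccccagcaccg
Calcrl: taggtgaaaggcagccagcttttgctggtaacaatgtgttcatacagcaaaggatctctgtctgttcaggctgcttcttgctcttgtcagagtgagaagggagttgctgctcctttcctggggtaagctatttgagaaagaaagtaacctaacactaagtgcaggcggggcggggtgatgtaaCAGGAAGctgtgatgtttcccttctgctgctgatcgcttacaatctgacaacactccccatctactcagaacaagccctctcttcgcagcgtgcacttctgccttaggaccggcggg

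KO prostates were then set against Het prostates. Of the 36 tested genes, 33 had a higher and 3 a lower fitted level in KO than in Het, with a median log2 fold change of 1.27, against 0.02 over all genes tested. EdgeR called 0 of the 36 and 0% of all genes at an adjusted p under 0.05. At an unadjusted p under 0.05, 18 of the 36 were higher, against 4.42% of all genes, and 0 were lower, against 1.81% of all genes. The 18 became 8 with a seminal vesicle score and 4 with a skeletal muscle score as covariate. The shares of all genes are not given here for the 8 and the 4. DESeq2 called 7 higher (19.4%, against 0.928% of all genes it could adjust): Plvap, Vwf, Podxl, Tie1, Lyve1, Gpr182 and Cd93. In 19 of the 36 (52.8%) every KO library lay above every Het library, against 7.8% of all genes. Gpr182, for which only a low Het value was open, is among the 18, the 7 and the 19. The class medians ran from 0.71 for the G protein-coupled receptor genes to 2.28 for the lymphatic genes (2.09 without Gpr182). This comparison and that of Het with WT share the Het libraries, so they do not count as separate support for low values in Het.

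KO prostates were last set against WT. Of the 36 genes 28 had a higher and 8 a lower fitted level in KO, with a median log2 fold change of 0.50, against 0.01 over all genes tested. EdgeR again called 0 of them and 0% of all genes at an adjusted p under 0.05, and DESeq2 called 0 of the 36, against 0.0668% of all genes higher and 0.0182% lower. At an unadjusted p under 0.05, 1 was higher (2.78%, against 2.2% of all genes) and 0 were lower (1.37% of all genes). The 1 became 10 in limma voom with library quality weights and 5 in a fit of KO and WT alone. The shares of all genes in these 2 fits are not given here, so the 10 and the 5 cannot be set against the 2.2%. In the edgeR fit of all 9 libraries the gene was Egfl7, a matrix-bound regulator of vessel tube formation, with 16.4, 13.1 and 10.4 CPM in KO libraries, 5.57, 3.31 and 8.17 CPM in Het libraries and 3.14, 6.44 and 7.83 CPM in WT libraries. Its log2 fold change of KO over WT was 1.20 ± 0.43 (SE; edgeR adjusted p = 1). Every KO library lay above every WT library for 5 genes, Egfl7, Flt1, Podxl, Erg and Icam2 (13.9%, against 8.14% of all genes), and below for 0 (6.04% of all genes). The median rested on few libraries, being 0.24 without WT library 1, 0.24 without KO library 2 and 0.33 without KO library 1, and the count of 1 became 0 without KO library 1 or WT library 1, 2 without Het library 1, Het library 2 or WT library 2, 3 without Het library 3 and 4 without KO library 3. The counts without single libraries also have no share of all genes beside them. With covariates the median was 0.13 (seminal vesicle score), -0.14 (skeletal muscle score) and 0.92 (genes detected).

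**Figure D3:**
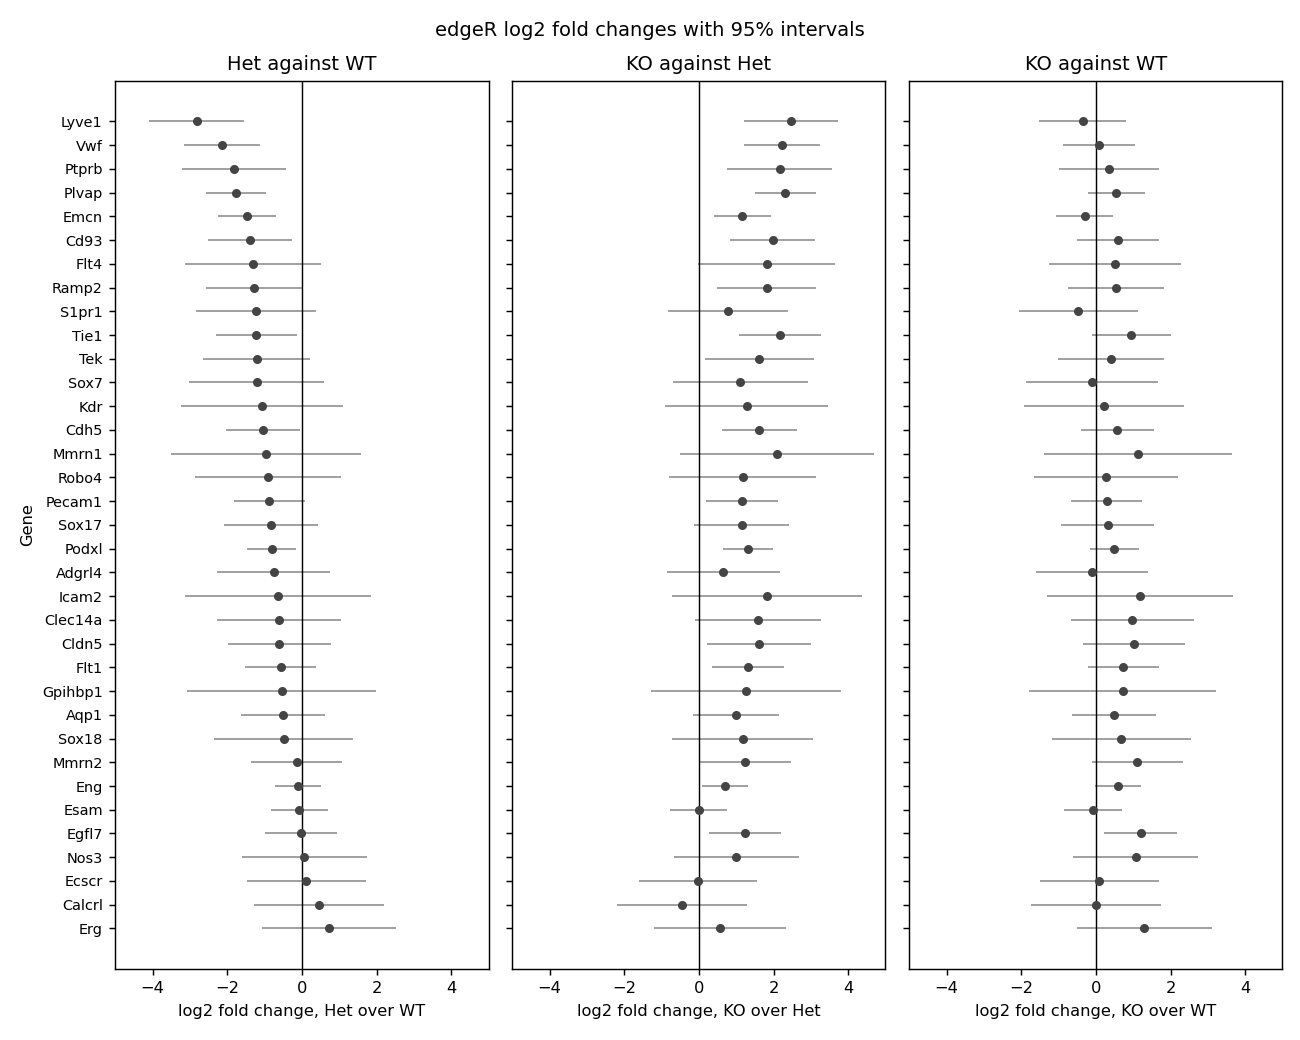
Log2 fold changes of the tested endothelial genes with their 95% intervals, with a panel each for Het over WT, KO over Het and KO over WT and genes ordered by Het over WT. Gpr182, with no read in Het, and the untested Prox1 are left out. Most Het over WT values lie left of 0 and most KO over Het values right of it, and the intervals of KO over WT cross 0 for all genes shown except Egfl7.

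Other genes that act on vessels were split between the directions. In a list of 31 tested ligands, co-receptors and Notch-pathway genes, 16 had a lower and 15 a higher fitted level in Het than in WT, with a median log2 fold change of -0.12. At an unadjusted p under 0.05, 1 was lower and 1 higher, where 5.61% of all genes tested were lower and 3.43% higher. Vegfa, the main vessel growth factor, averaged 50.2 ± 5.35 in KO, 34.1 ± 10.7 in Het and 54.5 ± 1.47 CPM in WT libraries. Its log2 fold change of Het over WT was -0.68 ± 0.21 (SE, edgeR adjusted p = 0.419). Without Het library 1 the edgeR adjusted p was 0.0307, in a fit that called 258 of all genes and 0 of the 36 endothelial genes. Ccbe1, which helps to activate VEGF-C, averaged 33.4 ± 7.09 in KO, 63.3 ± 8.67 in Het and 32.6 ± 9.54 CPM in WT libraries, a log2 fold change of Het over WT of 0.96 ± 0.25 (SE; edgeR adjusted p = 0.405). In KO over Het, 22 of the 31 were higher and 9 lower, with 5 higher and 1 lower at an unadjusted p under 0.05. Of all genes tested 4.42% were higher and 1.81% lower at that p. In KO over WT, 26 were higher and 5 lower, with a median of 0.30, and Jag1, a Notch ligand, was the only gene at an unadjusted p under 0.05 (log2 fold change 0.58 ± 0.22, SE; edgeR adjusted p = 1). Of all genes tested 2.2% were higher and 1.37% lower at that p, so 1 gene of 31 is near the general share.

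Markers of other cell types were compared in the same libraries. Of 5 tested red cell genes all had a lower fitted level in Het than in WT, with a median log2 fold change of -2.18, and the 6 listed summed to 47.3 to 82.7 CPM in KO, 9.99 to 27.7 CPM in Het and 49.2 to 82.2 CPM in WT libraries. Slc4a1 among them had no read in 2 of the KO libraries and in any Het or WT library. Of 12 fibroblast genes all were lower in Het than in WT in fitted level, with a median of -0.63 and sums of 1524 to 2426 CPM in KO, 876 to 1244 CPM in Het and 1089 to 1907 CPM in WT libraries. None of the 12 was at 0 in any library. Pericytes, which wrap capillaries, were not low in Het as a list: 7 of 9 tested pericyte genes had a higher fitted level in Het than in WT, with a median of 0.60, and the 10 listed summed to 117, 172 and 113 CPM in KO, 44.9, 181 and 184 CPM in Het and 67.6, 97.6 and 95.5 CPM in WT libraries. Het library 1 was the lowest library for the pericyte sum and Het libraries 2 and 3 the highest. The 10 smooth muscle genes showed the same split, at 6841, 5325 and 4995 CPM in KO, 1340, 8903 and 8875 CPM in Het and 3761, 6000 and 7570 CPM in WT libraries. In KO over WT, 11 of 11 tested skeletal muscle genes had a higher fitted level, with a median log2 fold change of 3.29. They summed to 746, 5551 and 1072 CPM in KO libraries 1 to 3, 143 to 662 CPM in Het libraries and 343, 679 and 1338 CPM in WT libraries 1 to 3. In Het over WT 10 of the 11 were lower, with a median of -4.14. Myh4 and Pvalb had no read in Het, and Tnnc2 had none in any library. Of 6 adipocyte genes 5 were lower in Het than in WT, with a median of -0.82. Lep among them had no read in 2 Het libraries and 1 WT library. Of 6 Schwann cell genes 6 had a higher fitted level in KO than in WT, with a median of 0.84. Their sums were 92.5 to 121 CPM in KO, 63.0 to 74.0 CPM in Het and 45.7 to 70.7 CPM in WT libraries, with none at 0 in any library. In Het over WT 5 of the 6 were higher, with a median of 0.15. The 9 tested pericyte genes were also all higher in KO than in WT in fitted level, with a median of 0.67. The 8 seminal vesicle genes summed to 97795, 95066 and 191375 CPM in KO libraries 1 to 3. In Het libraries they summed to 6595, 359197 and 113351 CPM, and in WT libraries to 72239, 31075 and 220182 CPM. In Het over WT 4 of the 8 were lower and 4 higher. Svs1 among them had no read in 1 Het library. Of these lists only the skeletal muscle and seminal vesicle scores were fitted as covariates. With the skeletal muscle score the endothelial median was -0.14 in KO over WT, -0.66 in Het over WT and 0.67 in KO over Het. With the seminal vesicle score it was 0.13, -0.50 and 0.78 in the same comparisons. The part of the other cell types in the endothelial values was not tested.

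**Figure D4:**
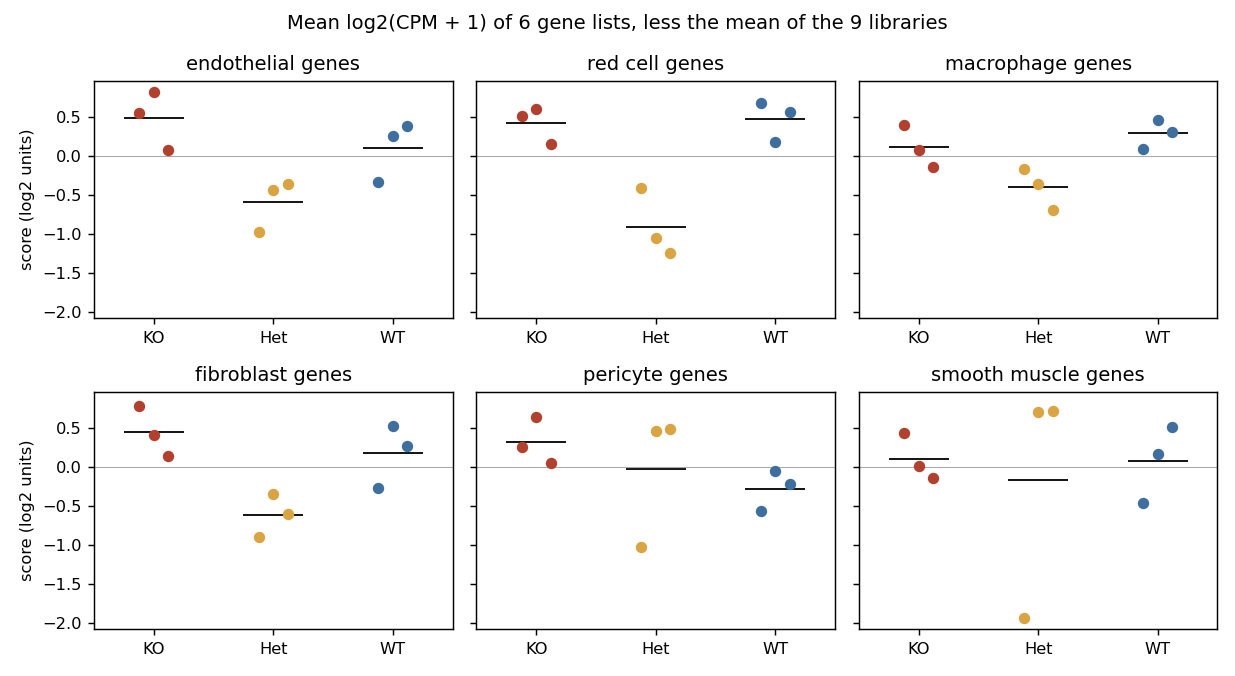
Score per library (mean log2(CPM + 1) of a gene list, less its mean over the 9 libraries) for the endothelial genes and 5 lists of other cell types. Points are KO, Het and WT libraries and lines are genotype means. The endothelial score is -0.97, -0.43 and -0.36 in Het libraries 1 to 3, and the pericyte and smooth muscle scores are low in Het library 1 and high in Het libraries 2 and 3.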

How the data were processed

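The authors deposited raw read counts per gene (whole numbers) and FPKM values per library. A deposited table of FPKM means per genotype was not used. Per the submitters' processing notes, the build is GRCm38 (mm10). No source used here names the aligner, the counter or whether strand was used, so reads of overlapping or antisense genes may be mixed. Genotypes come from the labels, and replicate numbers follow accession order.

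Counts of all 9 libraries were fitted in 1 edgeR 4.0.16 quasi-likelihood model (R 4.3.3, TMM, genotype only). The filterByExpr rule kept 16836 of 54532 genes. P-values were adjusted by Benjamini-Hochberg over all genes tested, with calls at 0.05. The standard error was computed as |log2 fold change|/√F, and intervals are at 95%. CPM uses TMM-scaled library sizes, and scores use log2(CPM + 1). Scripts were checked on simulated data. No pair of libraries was a near-duplicate (chi-square per degree of freedom at least 40.0). FPKM was used only to compare levels between genes.

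Members and lists were chosen with earlier results of these data known. Plvap, Lyve1, Vwf and the gene with the smallest Het over WT p in each class are given in full. Of other lists, up to 4 genes with the smallest p were eligible, and other named genes were picked with values in view. Alternatives were other scalings and filters, DESeq2 1.42.0, limma 3.58.1 voom with and without quality weights, 2-group fits, leaving out libraries, and covariates. The folds over the floor without single libraries and the lymphatic median without Gpr182 were added after seeing the data.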

Additional observations from a re-analysis of the deposited data

How the results depend on the processing

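Under other scalings and filters each endothelial median moved by less than 1 SD between libraries, no endothelial gene was called, and edgeR's test called 0 genes except 2 in KO over Het without a filter. By DESeq2 14 genes were called in KO over WT, 205 in Het over WT and 169 in KO over Het, of which 0, 5 and 7 were endothelial. Voom with quality weights called 699 of 16836 genes in Het over WT. It called 2 of the 36 endothelial genes (Podxl and Emcn), which is near the general share. A fit of KO and WT alone called 1. Without the 3 libraries low in Sbp, 1 gene was called in Het over WT and 1 in KO over Het, where the lone WT library left is assumed to vary like the other groups. With the seminal vesicle score as covariate 252 were called in Het over WT and 78 in KO over Het.

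Leaving out each library gave 0 to 1 genes called in KO over WT and 0 to 258 in Het over WT. In KO over Het it gave 0 to 18. The highest number was each without Het library 1, and 0 endothelial genes were called in any of these fits. The endothelial median then ran from 0.24 to 0.75 in KO over WT, from -1.14 to -0.55 in Het over WT and from 1.12 to 1.51 in KO over Het. With the skeletal muscle score as covariate it was -0.14 in KO over WT, -0.66 in Het over WT and 0.67 in KO over Het. With the seminal vesicle score it was 0.13 in KO over WT, -0.50 in Het over WT and 0.78 in KO over Het, and with the number of genes detected 0.92, -1.90 and 2.85 in the same comparisons.

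Signs of some KO over WT values turned, among them that of Cd93, at 0.59 in the main fit. That of Sox7 in KO over Het, at 1.11 in the main fit, turned as well. Vwf was -0.083 by voom, -0.18 with the seminal vesicle score, -0.42 with the skeletal muscle score and -0.36 to 0.39 over left-out libraries. Lyve1 was 0.019 with genes detected and -0.70 to 0.13 over left-out libraries. Ptprb was -0.47 with Sbp and Cd93 -0.16 with the skeletal muscle score. Sox7 was 0.044 by voom, 0.27 with quality weights, 0.71 without the libraries low in Sbp, 0.48 with Sbp, 0.53 with genes detected and -0.35 to 0.54 over left-out libraries, and -0.17 in KO over Het with the skeletal muscle score. The cause was not tested. No paired analysis was possible because the replicate numbers follow accession order and pair nothing. Of the genes on few reads, Sox7, on 8 to 47 reads per library, had an SE of 0.81 on the log2 scale in Het over WT.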
